A study of Mus musculus with 4 samples.

Results

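The genes described here encode the nuclear-made subunits of the mitochondrial respiratory chain and ATP synthase. They were chosen by symbol in the platform annotation: Nduf followed by a, b, c, s or v and a digit, the 4 succinate dehydrogenase genes Sdha to Sdhd, symbols starting with Uqcr, Cyc1, the Cox4 to Cox8 genes, and symbols starting with Atp5. Among the 22180 genes that had a probe set of their own, 81 met the rule. By symbol, 33 belonged to complex I, 4 to complex II, 9 to complex III, 17 to complex IV and 18 to complex V. The gene table used for names listed 79 of them as protein coding and 2, Uqcrh-ps1 and Atp5c1-ps, as pseudogenes. A further 9 protein-coding symbols of the same form had no probe set of their own and were not analysed here.

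Stomach tissue of FVB mice aged 1 year was compared between Hdc+/+ animals, 2 arrays, and Hdc-/- animals, 2 arrays. The product of Hdc, histidine decarboxylase, turns histidine into histamine, and Hdc-/- denotes loss of both copies. Titles describe the samples as biological replicates without saying that each was another animal, so every p-value reflects only how far these samples vary, which may be technical. How the deletion was built and any pooling are not stated in the labels.

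Oxidative phosphorylation passes electrons from NADH (through complex I) and succinate (through complex II) to complex III and then, by cytochrome c, to complex IV, where oxygen is reduced. The proton gradient built on the way drives ATP synthase, complex V. In the stomach, parietal cells, which secrete acid and respond to histamine, are packed with mitochondria. Most subunits are made in every tissue, but several complex IV subunits exist as paralogs that are known to be restricted to muscle, brown fat, lung or testis.

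The sample-wide checks were as follows. Values were log2 probe set values, and the median over all genes lay between 4.56 and 4.60 on the 4 arrays. The targeted gene Hdc read 3.99 and 3.82 on the Hdc+/+ arrays and 3.77 and 4.06 on the Hdc-/- arrays, so the genotypes were 0.01 log2 units apart (SE 0.19, adjusted p = 0.997). It thus read below the median over all genes on every array, the Hdc+/+ arrays included. The labels also do not state whether its probes lie in the deleted part. For both reasons, this reading is no check of the genotypes. The stomach label was borne out by the proton pump gene Atp4a (11.08, 10.42, 10.70 and 10.83, Hdc+/+ arrays first) and the pit cell gene Gkn1 (12.97, 13.01, 12.81 and 12.95). Markers of other organs and of blood cells differed between arrays. The 10 hepatocyte markers, Alb and Apoa1 among them, were all measured and all lay lower without overlap on the Hdc-/- arrays, and the sum of their unlogged values was 4515 and 13366 on the Hdc+/+ arrays and 553 and 784 on the Hdc-/- arrays. The 7 measured pancreatic acinar markers of 9 summed to 4097 and 7348 against 4351 and 4913. Clps made up most of that sum on the other arrays and was lowest on Hdc+/+ array 2 (11.93, 11.38, 12.02 and 12.20), where Cpa1 was far higher than elsewhere (4.11, 10.20, 4.47 and 4.04). In the same order, the 9 intestinal markers summed to 1285 and 5208 against 632 and 580. Hdc+/+ array 2 was thus the highest of the 4 for all 3 lists. The 8 measured squamous markers of 9 summed to 2517 and 2154 against 1187 and 1310. Sprr1a made up most of that sum (11.17, 10.87, 10.07 and 10.21), while 6 of the 8 markers were highest on Hdc+/+ array 2. The 8 leukocyte markers summed to 393 and 546 against 713 and 760. None of these values can be 0 on this scale. The lowest hepatocyte reading was that of Serpina1c at 1.60.

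As sequence background, the start regions of the members were searched for short motifs of factors known to control respiratory genes. RefSeq promoters (GRCm38.p6, 250 bases before to 50 after each annotated start) were matched by gene identifier for 64 of the 81 genes. On either strand, the NRF1 motif, whose 10 letters are the capitals in the Atp5k window below, was present in 5 of the 64 (7.81%) against 1.07% of the 27025 genes in the table. The ETS motif CCGGAAGT, bound by GABPA among others, was present in 5 (7.81%) against 4.31%, the ERR receptor motif TCAAGGTCA in 2 (3.12%) against 0.466%, and the YY1 motif, whose 10 letters are the capitals in the Ndufs7 window further on, in 4 (6.25%) against 0.995%. In all, 16 members held a motif and 0 held more than 1 kind, so no matches overlapped between motifs. A match is a description of letters and not a site shown to be bound. The first pair of windows below is shown because both genes, Atp5k and Uqcrh, read higher on both Hdc-/- arrays. They had the highest difference among the carriers of their motif. The log2 difference, Hdc-/- minus Hdc+/+, ran from 0.05 to 0.32 over the 5 NRF1 carriers and from 0.01 to 0.29 over the 5 ETS carriers. Apart from Atp5k, Uqcrh and Cox8a, these carriers overlapped between genotypes. A link between motif and difference was not tested. The second pair is shown because Cox8a and Cox8b are paralogs whose differences had opposite signs. Capitals mark the NRF1 motif in Atp5k and the ETS motif, read on the opposite strand, in Uqcrh and Cox8a; Cox8b held none of the 4 motifs. Cox8a held a second match after the start, at base +32. Each runs 5′ to 3′ on the gene's strand, which is the minus strand for all 4 genes, up to the annotated start (2 bases beyond it for Cox8a, to complete the motif).
Atp5k (chr5:108434400-108434649): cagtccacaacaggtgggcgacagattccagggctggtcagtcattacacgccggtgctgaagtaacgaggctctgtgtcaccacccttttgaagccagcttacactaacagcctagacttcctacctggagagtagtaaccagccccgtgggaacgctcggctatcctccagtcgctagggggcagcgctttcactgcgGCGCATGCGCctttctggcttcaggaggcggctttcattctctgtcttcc
Uqcrh (chr4:116075071-116075320): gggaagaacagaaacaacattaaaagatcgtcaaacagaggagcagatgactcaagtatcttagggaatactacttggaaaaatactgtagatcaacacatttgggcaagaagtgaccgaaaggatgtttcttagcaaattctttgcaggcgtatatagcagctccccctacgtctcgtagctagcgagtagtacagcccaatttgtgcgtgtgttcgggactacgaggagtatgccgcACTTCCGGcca
Cox8a (chr19:7217615-7217866): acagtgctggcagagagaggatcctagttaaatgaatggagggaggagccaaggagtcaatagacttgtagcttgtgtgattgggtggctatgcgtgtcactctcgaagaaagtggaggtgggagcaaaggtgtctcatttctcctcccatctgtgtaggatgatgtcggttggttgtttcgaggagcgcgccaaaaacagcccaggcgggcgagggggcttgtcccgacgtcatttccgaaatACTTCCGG
Cox8b (chr7:140900447-140900696): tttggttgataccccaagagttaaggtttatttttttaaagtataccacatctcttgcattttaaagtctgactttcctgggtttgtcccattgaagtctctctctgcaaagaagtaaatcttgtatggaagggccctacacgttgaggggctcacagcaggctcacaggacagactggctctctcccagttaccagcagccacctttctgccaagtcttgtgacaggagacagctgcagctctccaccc

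As a family, the oxidative phosphorylation genes read slightly higher in Hdc-/- than in Hdc+/+ stomach, and no member passed the test. The median log2 difference, Hdc-/- minus Hdc+/+, was 0.12 (1.09-fold) over the 81 members and 0.02 over all genes. The differences ran from -0.49 (Cox8b) to 0.46 (Ndufa3), and 65 of the 81 were above 0 (80.2%, against 54.1% of all genes) and 16 below 0 (19.8%, against 45.9%). By limma with Benjamini-Hochberg adjustment over all genes, 0 members were called in either direction, against 0.00451% of all genes called higher and 0% called lower, and the smallest adjusted p of a member was 0.523. At an unadjusted p under 0.05 there was 1 member higher (Cox7a2l) and 1 lower (Cox8b), that is 1.23% in each direction against 3.68% and 4.87% of all genes. The Hdc-/- arrays did not overlap the Hdc+/+ arrays for 27 members that lay higher (33.3%, against 21.5% of all genes) and for 2 that lay lower (2.47%, against 17.6%). The difference exceeded the larger gap between arrays of a genotype for 21 members that lay higher (25.9%, against 14.8%) and for 1 that lay lower (1.23%, against 11.6%). In whole tissue, more cells that make a transcript and more transcript per cell cannot be told apart.

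**Figure D1:**
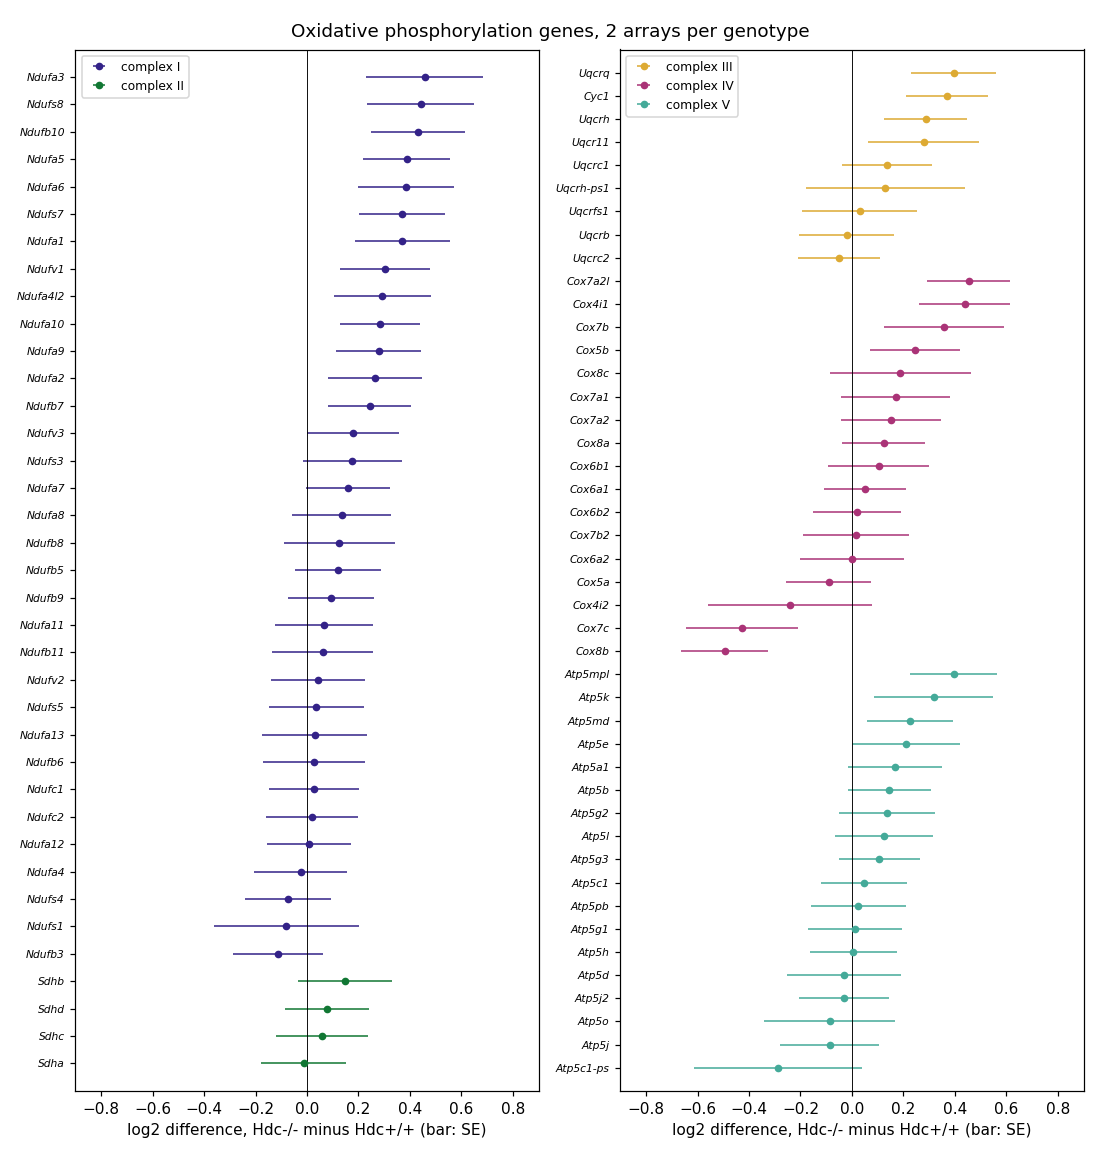
Log2 difference (Hdc-/- minus Hdc+/+) of each of the 81 genes with its moderated standard error as a bar, coloured by complex. Points lie between -0.49 (Cox8b) and 0.46 (Ndufa3), 65 of them above 0, and 0 passed the adjusted test.

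Much of this family difference followed Hdc+/+ array 2. That array held the lowest reading of 53 of the 81 members (65.4%, against 29.9% of all genes), while Hdc+/+ array 1 was lowest for 4, Hdc-/- array 1 for 11 and Hdc-/- array 2 for 13. Around each gene's mean, the median member read 0.03 on Hdc+/+ array 1, -0.16 on Hdc+/+ array 2, 0.06 on Hdc-/- array 1 and 0.10 on Hdc-/- array 2. Without Hdc+/+ array 2 the member median was 0.03, with 47 members above and 34 below 0, and the median of all genes was -0.0012. Without Hdc+/+ array 1 it was 0.19, without Hdc-/- array 1 it was 0.17 and without Hdc-/- array 2 it was 0.10. Hdc+/+ array 2 was also the array with the highest hepatocyte, pancreatic and intestinal marker sums given above. It had the lowest sum of the 14 parietal cell markers, at 7618 and 5433 on the Hdc+/+ arrays and 6622 and 6981 on the Hdc-/- arrays. Its sum of the 6 measured chief cell markers of 7 was also the lowest, at 8299 and 4813 against 10478 and 11007. As single genes, 10 of the 14 parietal and 4 of the 6 chief cell markers were lowest on Hdc+/+ array 2. Atp4a and Atp4b made up most of the parietal sum, and Pgc most of the chief cell sum. The part of these tissues in the family difference was not tested. With each array left out in turn, 34 members kept a difference above 0 and 3 kept one below 0 (Cox8b, Cox7c and Cox5a), while 44 changed sign.

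**Figure D2:**
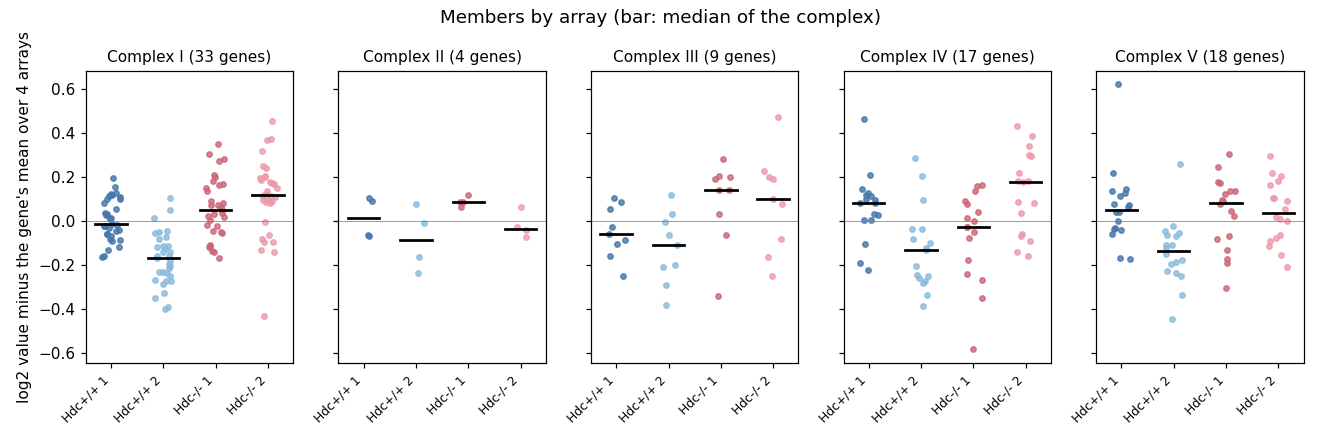
Log2 value of each member minus that gene's mean over the 4 arrays, by complex and array, with the median of the complex as a black bar. Hdc+/+ array 2 has the lowest median in each of the 5 complexes.

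**Figure D3:**
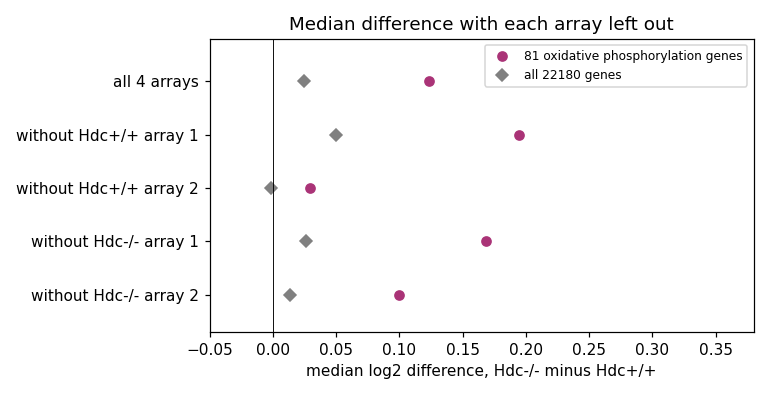
Median log2 difference of the 81 members (circles) and of all 22180 genes (diamonds) with all 4 arrays and with each array left out. The member median is 0.12 with all arrays and falls to 0.03 without Hdc+/+ array 2, where the median of all genes is -0.0012.

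Complex I, the NADH dehydrogenase, had the largest share of members on the higher side. Of its 33 genes, 29 had a difference above 0 (54.1% of all genes did), 15 lay higher without overlap (21.5% of all genes) and 0 lay lower without overlap (17.6% of all genes). The median was 0.14, and 0.033 without Hdc+/+ array 2. Ndufa3, an accessory subunit, read 8.68 and 8.36 on the Hdc+/+ arrays and 8.75 and 9.20 on the Hdc-/- arrays, 0.46 higher on the log2 scale (SE 0.23, adjusted p = 0.639). Its groups did not overlap, although Hdc+/+ array 1 and Hdc-/- array 1 were close together. Ndufs8, which carries iron-sulphur clusters on the electron path, read 8.31 and 7.95 against 8.42 and 8.72, a difference of 0.44 (SE 0.21, adjusted p = 0.626). Ndufb10, an accessory subunit of the membrane arm, read 6.14 and 6.03 against 6.37 and 6.67, a difference of 0.43 (SE 0.18, adjusted p = 0.596). Both Hdc-/- arrays exceeded both Hdc+/+ arrays for each of these genes. The Ndufa3 difference was 0.62 without Hdc+/+ array 1 and 0.30 without Hdc+/+ array 2, and 0.68 and 0.23 without Hdc-/- arrays 1 and 2.

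The nuclear-encoded core subunits of complex I form its peripheral arm, and most of them bind the flavin or iron-sulphur clusters. They were described together, and 6 of them were measured. Their median difference was 0.24, with 5 above 0 (54.1% of all genes) and 3 higher without overlap (21.5% of all genes). Besides Ndufs8, the 2 that did not overlap were Ndufs7, an iron-sulphur protein (8.64 and 8.44 against 8.92 and 8.89), and Ndufv1, which binds NADH and the flavin (7.59 and 7.35 against 7.83 and 7.72). Both differences, 0.37 (SE 0.17) and 0.30 (SE 0.17), exceeded the gaps within either genotype. Ndufs1, the largest iron-sulphur subunit, read 7.75 and 7.88 on the Hdc+/+ arrays, and its highest and lowest readings, 8.12 and 7.34, were both on Hdc-/- arrays. Its difference of -0.08 (SE 0.28) was 0.31 without Hdc-/- array 2 and -0.47 without Hdc-/- array 1. The promoter windows of Ndufs7 and of the accessory subunit gene Ndufa9 (8.22 and 8.04 against 8.43 and 8.38, difference 0.28) held the YY1 motif just after the annotated start, at bases +25 and +30. The 30 bases around each match, with the motif in capitals, are shown because both genes read higher on both Hdc-/- arrays.
Ndufs7 (chr10:80249463-80249492, plus strand): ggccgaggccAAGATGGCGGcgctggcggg
Ndufa9 (chr6:126849096-126849125, minus strand): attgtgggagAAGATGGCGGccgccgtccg
The same motif also lay in the windows of Ndufs4 and Atp5j, which read -0.07 and -0.09 on the log2 difference scale.

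The other 27 genes placed in complex I by symbol had a median difference of 0.13. They are its accessory subunits, together with Ndufa4 and its paralog Ndufa4l2. Of the 27, 24 were above 0 (54.1% of all genes were) and 12, Ndufa4l2 among them, lay higher without overlap (21.5% of all genes). The 4 complex I members below 0 were Ndufb3 (-0.11, SE 0.18), Ndufs1, Ndufs4 (-0.07, SE 0.17) and Ndufa4 (-0.02, SE 0.18), and all 4 overlapped between genotypes. Ndufa4 was named for complex I but is now placed in complex IV. Ndufs4, which has a role in the assembly and stability of the complex, gave 7.19 and 7.02 against 7.09 and 6.97, so the arrays of the genotypes were interleaved.

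Complex II, succinate dehydrogenase, showed little difference. Sdha, its flavoprotein, read 9.16 and 9.29 on the Hdc+/+ arrays and 9.28 and 9.15 on the Hdc-/- arrays (difference -0.01, SE 0.17). Sdhb, the iron-sulphur subunit, read 7.87 and 7.54 against 7.87 and 7.85 (0.15, SE 0.18). The membrane anchors Sdhc and Sdhd differed by 0.06 (SE 0.18) and 0.08 (SE 0.16). All 4 overlapped between genotypes, and their adjusted p was at least 0.877.

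Complex III, which passes electrons to cytochrome c, was split. Of its 9 genes, 7 were above 0 (54.1% of all genes) and 3 were higher without overlap (21.5% of all genes). The median was 0.14. Cyc1, the haem-bearing cytochrome c1, read 7.38 and 7.33 against 7.68 and 7.77, a difference of 0.37 (SE 0.16, adjusted p = 0.597). The gap between genotypes was wider than either gap within a genotype, and the difference ran from 0.33 to 0.41 with an array left out. Uqcrq read 5.27 and 5.09 against 5.58 and 5.57 (0.40, SE 0.16, adjusted p = 0.591), and Uqcrh, the hinge protein whose promoter is shown above, 7.05 and 6.94 against 7.33 and 7.24 (0.29, SE 0.16). Uqcr11, a small subunit, differed by 0.28 (SE 0.22) and the core protein gene Uqcrc1 by 0.14 (SE 0.18), and both overlapped. Uqcrfs1, the Rieske iron-sulphur protein, read 6.36 and 6.45 against 6.70 and 6.17 (0.03, SE 0.22), and Uqcrb and the other core protein gene, Uqcrc2, differed by -0.02 (SE 0.18) and -0.05 (SE 0.16).

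Complex IV, cytochrome c oxidase, held the lowest difference of the family, that of Cox8b, and the second highest, that of Cox7a2l. Of its 17 genes, 13 were above 0, and 4 lay higher and 2 lower without overlap, shares near the 21.5% and 17.6% of all genes. The median was 0.10, and -0.018 without Hdc+/+ array 2. Cox7a2l, a relative of Cox7a that is known to join complexes III and IV into supercomplexes, read 6.65 and 6.58 against 6.9997 and 7.14, a difference of 0.45 (SE 0.16, unadjusted p = 0.0336, adjusted p = 0.543). Cox4i1, the common form of subunit 4, read 8.96 and 8.73 against 9.20 and 9.36, a difference of 0.44 (SE 0.18, adjusted p = 0.585). For both genes the lower Hdc-/- array exceeded the higher Hdc+/+ array, and their differences stayed above 0.38 and 0.32 with any 1 array left out. Cox7b read 8.15 and 7.73 against 8.09 and 8.50 (0.36, SE 0.23), and there Hdc+/+ array 1 lay above Hdc-/- array 1. Cox7c, also a general subunit, read 3.90 and 3.40 against 3.17 and 3.28 (-0.43, SE 0.22, adjusted p = 0.645). Its groups did not overlap, but its probe set lay at the 23.8th percentile of all genes.

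The tissue-restricted paralogs of complex IV lay on both sides of 0. Cox8b, the heart and skeletal muscle form of subunit 8 that brown fat also makes, read 3.79 and 3.87 on the Hdc+/+ arrays and 3.23 and 3.44 on the Hdc-/- arrays. The difference was -0.49 (0.710-fold, SE 0.17, unadjusted p = 0.0286, adjusted p = 0.523). Both Hdc-/- arrays lay below both Hdc+/+ arrays, at the 26.7th percentile of all genes over the 4 arrays, and the difference ran from -0.60 to -0.39 with an array left out. Its common paralog Cox8a read 9.90 and 9.76 against 9.93 and 9.98 (0.12, SE 0.16). The muscle forms Cox6a2 (4.60 and 4.36 against 4.30 and 4.66) and Cox7a1 (6.53 and 6.14 against 6.37 and 6.64) overlapped between genotypes, with differences of 0.0020 (SE 0.20) and 0.17 (SE 0.21). Cox4i2, a form known from lung, read 4.11 and 4.06 against 3.38 and 4.31 (-0.24, SE 0.32), the Hdc-/- arrays being its lowest and highest. The testis forms Cox6b2, Cox7b2 and Cox8c differed by 0.02, 0.02 and 0.19, each within its SE. Ndufa4l2, a paralog of Ndufa4 that is induced by hypoxia, read 4.06 and 3.95 against 4.13 and 4.47 (0.29, SE 0.19). The common paralogs Cox6a1, Cox6b1 and Cox7a2 differed by 0.05, 0.10 and 0.15 and overlapped.

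Cell markers that bear on Cox8b were set beside it. The 7 measured white adipocyte markers of 8, among them Adipoq and Plin1, summed to 1175 and 1830 on the Hdc+/+ arrays and 375 and 553 on the Hdc-/- arrays. The 7 measured brown adipocyte markers of 8 summed to 115 and 172 against 181 and 138. Among them Ucp1, the uncoupling protein that defines brown fat, read 3.96 and 4.26 against 3.91 and 3.82, below the median of all genes on every array. Cidea read 4.85 and 5.03 against 6.39 and 5.40, and Kng2 3.81 and 5.63 against 3.22 and 3.00. Kng2 was the brightest gene of the list on Hdc+/+ array 2, where the hepatocyte sum was also highest. Cidea was the brightest on the other arrays, so the sums lean on these genes. Of the 7 markers, 4 had a difference above 0 and 3 below. The 14 striated muscle markers, among them Acta1 and Actc1, summed to 315 and 284 against 295 and 336. The 9 smooth muscle markers summed to 3734 and 4049 against 3230 and 3213. The part of these cells in the Cox8b difference was not tested.

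**Figure D4:**
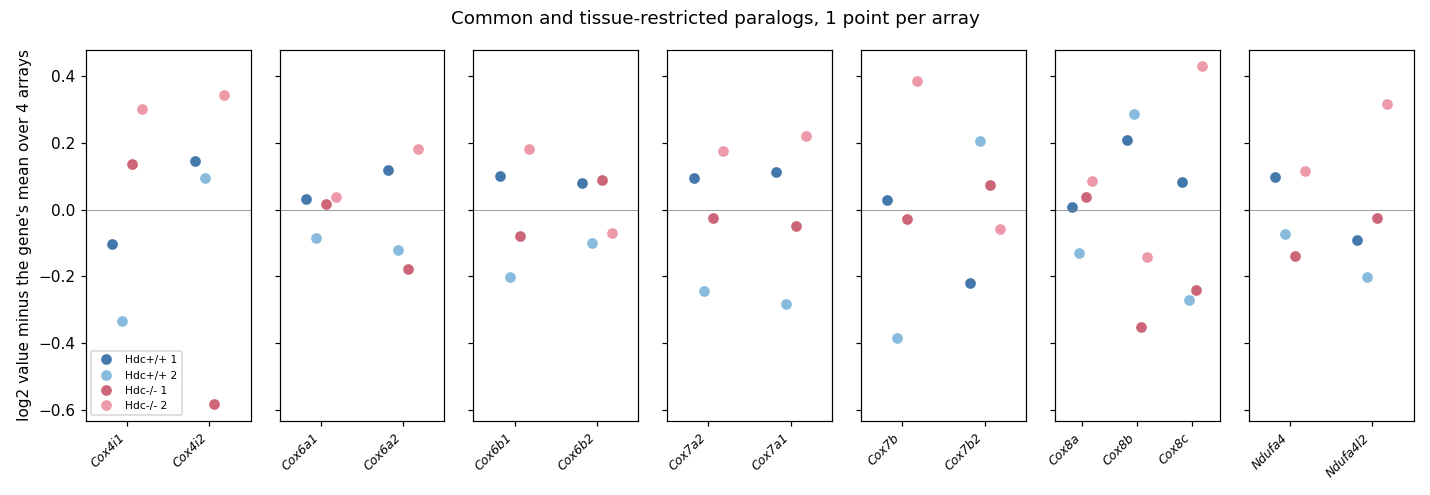
Log2 value of each paralog minus its mean over the 4 arrays, 1 point per array; common forms stand left of the tissue-restricted forms. Cox4i1 lies higher and Cox8b lower on both Hdc-/- arrays, and Cox4i2 has its lowest and highest readings within the Hdc-/- group.

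Complex V, the ATP synthase, had a median difference of 0.08, with 13 of 18 above 0. Without overlap, 5 lay higher, a share close to the 21.5% of all genes, and 0 lay lower, against 17.6%. The median was 0.021 without Hdc+/+ array 2. The 5 genes of the catalytic head and central stalk had a median of 0.14, with 4 above 0. Atp5b, the catalytic beta subunit, read 11.16 and 11.09 against 11.33 and 11.21 (0.14, SE 0.16), without overlap and by more than the gap within either genotype, and Atp5a1, the alpha subunit, 10.75 and 10.70 against 11.05 and 10.73 (0.17, SE 0.18). The 3 genes that encode the identical c subunit of the rotor, Atp5g1, Atp5g2 and Atp5g3, differed by 0.01, 0.14 and 0.11. The 4 peripheral stalk genes Atp5pb, Atp5h, Atp5j and Atp5o had a median of -0.04 and all overlapped. Of these, Atp5j read 5.27 and 5.07 against 5.25 and 4.92 (-0.09, SE 0.19) and Atp5o 5.68 and 6.11 against 5.55 and 6.07 (-0.09, SE 0.25). The 5 small accessory subunits of the membrane part had a median of 0.22, and 3 of them lay higher without overlap, against 21.5% of all genes. None passed the test, Atp5j2 differed by -0.03, and Atp5l (0.12) overlapped and differed by -0.05 without Hdc+/+ array 2. Atp5mpl read 7.39 and 7.33 against 7.86 and 7.65 (0.39, SE 0.17, adjusted p = 0.597) and Atp5md 10.15 and 9.99 against 10.35 and 10.23 (0.22, SE 0.17). Atp5k, subunit e, read 7.9992 and 7.43 against 8.01 and 8.05 (0.32, SE 0.23). Its separation was narrow, since Hdc+/+ array 1 lay just under both Hdc-/- arrays, and the difference was 0.03 without Hdc+/+ array 2. The pseudogene Atp5c1-ps read 3.00 and 2.04 against 2.20 and 2.26 (-0.29, SE 0.33), and Uqcrh-ps1 differed by 0.13 (SE 0.31).

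The remaining subunits of the same complexes, which the mitochondrial genome encodes, read nearly equal in both genotypes. Of the 13, 10 had a probe set of their own. Their median difference was 0.01 and 0 were separate between genotypes, against 21.5% of all genes higher and 17.6% lower. ND6 had the smallest p and read 10.68 and 10.47 against 10.57 and 10.65 (0.04, SE 0.17), and ND1 read 12.67 and 12.53 against 12.60 and 12.67 (0.03, SE 0.16). The 10 genes lay at or above the 99.6th percentile of all genes, and the highest value on any array was 13.3. Apart from ND6, with a mean of 10.59, their means ran from 12.38 (ND2) to 13.02 (ND4).

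Other nuclear genes of mitochondria lay on both sides of 0, and 0 genes of any of these lists passed the adjusted test. Mitochondrial ribosomal protein genes, which serve the translation of those genome-encoded subunits, numbered 71 and had a median of 0.17, with 54 above 0, 32 higher and 2 lower without overlap (21.5% and 17.6% of all genes). At an unadjusted p under 0.05 it had 4 genes higher, a share near the 3.68% of all genes, and none lower. Mrpl2 read 5.86 and 5.90 against 6.39 and 6.66 (0.64, SE 0.18, adjusted p = 0.451), and Mrpl9 differed by 0.62 (SE 0.17). The list's median stayed between 0.12 and 0.19 with an array left out. The 41 measured assembly factors of 43 had a median of 0.06 and 24 above 0 (54.1% of all genes). At an unadjusted p under 0.05 there was 1 gene in each direction, against 3.68% of all genes higher and 4.87% lower. These were Acad9 (0.52, SE 0.20) and Sco1, which delivers copper to complex IV (-0.50, SE 0.18). The 17 regulators of mitochondrial genes had a median of 0.12, with 7 higher and 1 lower without overlap (21.5% and 17.6% of all genes). Esrrg, an orphan nuclear receptor of mitochondria-rich cells and also a parietal marker, read 7.28 and 6.84 against 7.61 and 7.62 (0.55, SE 0.20, adjusted p = 0.552). Pprc1, a coactivator related to Ppargc1a, differed by 0.47 (SE 0.18).

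Lists of genes that feed the chain, and of its carriers, had medians from -0.23 to 0.0021. The 15 measured fatty acid oxidation genes of 16 had a median of -0.23, with 1 higher and 8 lower without overlap (21.5% and 17.6% of all genes). At an unadjusted p under 0.05, 3 of them were lower, against 4.87% of all genes, and none higher. Acaa2, which catalyses the last step of the cycle, read 9.24 and 9.38 against 8.21 and 8.47 (-0.97, SE 0.18, adjusted p = 0.293), and the medium-chain dehydrogenase gene Acadm 9.52 and 9.47 against 8.65 and 8.76 (-0.79, SE 0.16, adjusted p = 0.328). Both Hdc-/- arrays lay well below both Hdc+/+ arrays for each. The hepatocyte and white adipocyte marker sums given above were also lower on both Hdc-/- arrays, and their part was not tested. The 12 measured citric acid cycle genes of 13 had a median of -0.08, and of 0.06 without Hdc-/- array 2. That array was lowest for 7 of the 12 (58.3%, against 24.2% of all genes). Of the 12, 2 lay higher and 2 lower without overlap (21.5% and 17.6% of all genes). Fh1, fumarate hydratase, differed by 0.49 (SE 0.17, adjusted p = 0.543) and Suclg1 by -0.29 (SE 0.16). The 11 measured genes of pyruvate entry had a median of 0.0021. Pdk4, a kinase that restrains pyruvate dehydrogenase, differed by -0.73 (SE 0.27) and was lowest on Hdc-/- array 1 (7.57 and 7.71 against 6.55 and 7.27). Pdha1 differed by -0.62 (SE 0.29), and most of that lay on Hdc-/- array 2 (8.71 and 8.79 against 8.53 and 7.73). The 11 measured electron and nucleotide carriers of 13 had a median of -0.03, and the smallest p-values were those of Slc25a31 (0.48, SE 0.22) and the phosphate carrier gene Slc25a3 (0.30, SE 0.17). No difference between these lists and the oxidative phosphorylation genes was tested.

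**Figure D5:**
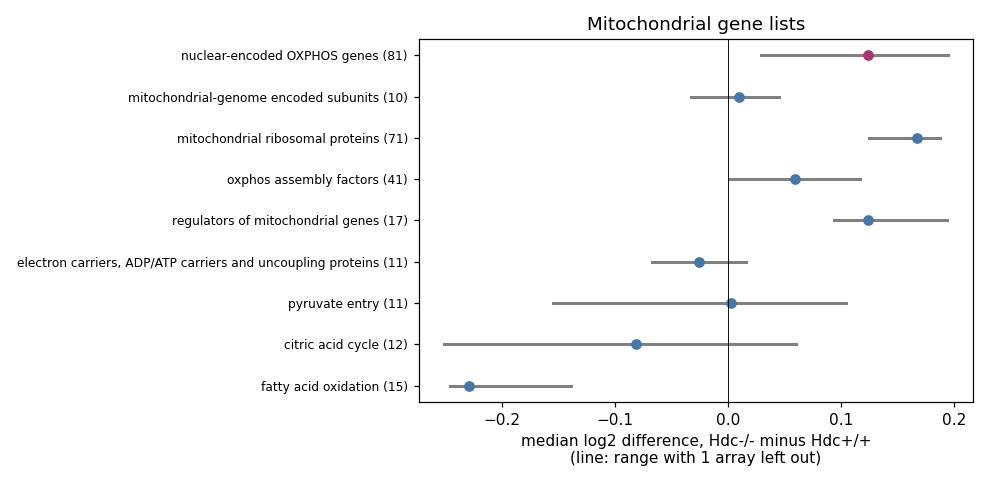
Median log2 difference of the oxidative phosphorylation genes and of 8 other mitochondrial gene lists (number of genes in brackets), with a line from the lowest to the highest median when 1 array is left out. The mitochondrial ribosomal proteins lie at 0.17, the oxidative phosphorylation genes at 0.12 and fatty acid oxidation at -0.23.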

How the data were processed

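Total RNA (5.5 ug per sample) was labelled for Affymetrix arrays, per the labels' protocols. The authors deposited log2 probe set values; the submitters' processing notes name RMA, oligo and Affymetrix Power Tools, with roles, filters and build not given in the sources used here. Of 41345 probe sets, 23521 had 1 symbol, 1814 several and 16010 none; the probe set with the highest mean stood for each gene, leaving 22180 genes, of which 21994 matched the gene table of GRCm38.p6 by Entrez identifier. Hdc-/- was compared with Hdc+/+ (n = 2 each) by limma 3.58.1 in R 4.3.3 (lmFit, eBayes, no covariate, Benjamini-Hochberg over all genes at 0.05; 2 residual and 3.62 prior degrees of freedom). SE is the moderated standard error and adjusted p is limma's. An exact permutation test of 1 gene here cannot go below 0.333. No dim gene was left out, and the number of arrays limits the precision.

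The members and lists were chosen with earlier results of these data known. Named were the 3 highest and 3 lowest differences per complex, all of complex II, the paralog pairs, and the 2 smallest p per list; other genes were named after their values were seen. Marker sums are of unlogged values. Alternatives covered probe set averaging, dim-gene filters, further normalization, the prior, blocks and each array left out.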

Additional observations from a re-analysis of the deposited data

How the results depend on the processing

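In every alternative run, 0 members passed the adjusted test; their smallest adjusted p ran from 0.387 to 0.997. The member median stayed above 0 throughout, from 0.09 (cyclic loess) to 0.14 apart from the fits that left out an array, and was 0.12 with the 77 exact subunit symbols. Cyclic loess moved the median of all genes to -0.0019, mitochondrial-genome subunits to -0.0014, pyruvate entry to -0.031, regulators to 0.082 and mitochondrial ribosomal proteins to 0.13; it gave 25 members below 0 and 6 lower without overlap, and turned Cox6a2 (-0.0297), Cox6b2 (-0.0105) and Uqcrfs1 (-0.0064). Averaged probe sets put regulators at 0.16. Without the dimmest 25% or 50% of genes complex III had a median of 0.21, and 1 or 0 members lay lower without overlap. Members higher at an unadjusted p under 0.05 numbered 3 with averaged probe sets, centred arrays or the trended prior, 2 without the dimmest 25% or after quantile normalization, and 4 without the dimmest 50%, where 0 were lower. The replicate block left 0 members at that p in either direction and called 6 genes lower. Over all genes, the gap between arrays 1 and 2 of Hdc+/+ and that of Hdc-/- correlated at r = -0.12. With 1 gap per genotype, and organ markers high on Hdc+/+ array 2, this does not decide whether the numbers pair the arrays. The crossed replicate block, added after seeing the data, gave 4 members higher at that p and 0 genes called higher. Genes called higher numbered 3 with the trended prior, which called 2 lower, and 0 over every probe set. The causes were not tested.

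With each array left out in turn, genes called higher ran from 0 to 3 and lower from 0 to 158; members at an unadjusted p under 0.05 from 0 to 3 higher and 0 to 2 lower; members below 0 from 13 to 34. Medians ran from -0.0012 to 0.0496 for all genes, 0.033 to 0.23 (complex I), -1.3e-05 to 0.14 (II), 0.10 to 0.29 (III), -0.018 to 0.20 (IV), 0.021 to 0.18 (V), 0.00072 to 0.12 (assembly factors), -0.032 to 0.045 (mitochondrial genome), -0.25 to 0.0599 (citric acid cycle), -0.16 to 0.10 (pyruvate entry), -0.25 to -0.14 (fatty acid oxidation), 0.094 to 0.19 (regulators), -0.067 to 0.016 (carriers) and 0.12 to 0.19 (mitochondrial ribosomal proteins). Differences that changed sign ran from -0.77 to 0.19 for Atp5c1-ps, -0.25 to 0.077 for Atp5j, -0.35 to 0.17 for Atp5o, -0.70 to 0.22 for Cox4i2, -0.0055 to 0.11 for Cox6a1, -0.18 to 0.18 for Cox6a2, -0.048 to 0.25 for Cox6b1, -0.0701 to 0.11 for Cox6b2, -0.028 to 0.37 for Cox7a1, -0.018 to 0.32 for Cox7a2, -0.20 to 0.23 for Cox7b2, -0.15 to 0.52 for Cox8c, -0.15 to 0.10 for Ndufa4, -0.25 to 0.025 for Ndufb3, -0.47 to 0.31 for Ndufs1, -0.16 to 0.0092 for Ndufs4, -0.082 to 0.057 for Sdha, -0.016 to 0.31 for Sdhb, -0.077 to 0.19 for Sdhc, -0.00022 to 0.16 for Sdhd, -0.17 to 0.13 for Uqcrb, -0.11 to 0.0084 for Uqcrc2 and -0.24 to 0.29 for Uqcrfs1. The lone array of a group was taken to vary like the other group; overlap was not counted there, since 2 arrays against 1 separate more easily. No background values were used, so signal over background limits of dim probe sets are unknown.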

Other observations

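For 9 members a second probe set was present, and the sign of the difference was the same on both for 7. The dimmer probe set of Ndufa11 read 4.31 and 4.30 on the Hdc+/+ arrays and 5.09 and 4.92 on the Hdc-/- arrays, a difference of 0.70 (SE 0.18), where the brighter one differed by 0.07 (SE 0.20). The dimmer probe set of Cox5b read 3.77 and 3.12 against 4.11 and 5.02, and that of Atp5h 3.39 and 3.17 against 2.81 and 2.52, where the brighter probe sets differed by 0.25 and 0.01. In addition, 10 probe sets carried a member's symbol together with that of another gene, and 8 of these had a difference above 0; they were given no name and entered no count above.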
